A study of Rattus norvegicus with 12 samples.

Results

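The genes described here are 10 enzymes of glycolysis and lactate metabolism, Hk1, Pfkp, Aldoa, Aldoc, Gapdh, Pgk1, Eno1, Eno2, Ldha and Ldhb, in 3 parts of the rat nervous system. A probe set, the group of oligonucleotides that reports 1 transcript on the array, was taken as a member where the platform annotation gave it a single symbol and that symbol was on the list. The rule found 12 of 31042 probe sets other than controls, and these covered 9 of the 10 genes. No probe set met it for Gapdh, whose transcript is read by 3 control probe sets and by 1367557_s_at, which carries the symbols Gapdh and Gapdhl10. Gapdh is therefore described only through those probe sets, and no count below includes it. Of the 12 member probe sets, 10 were bright enough to be tested, 1 or 2 for each of the 9 genes. The 2 that were not are 1398725_at of Hk1, with signals of 15.3 to 58.8, and 1368906_at of Pgk1, with signals of 0.831 to 12.4.

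Male Wistar rats were given acrylamide, a vinyl monomer that damages long axons, or saline by oral gavage once a day, the acrylamide at 30 mg/kg. Cerebellum, spinal cord and the left and right sciatic nerves were profiled on 12 one-colour arrays, 2 for each treatment in each tissue, and each array held RNA pooled from 2 rats. The sample labels give an age of 25 days and the series text 3 weeks, the controls are said to have had either saline or solvent, and 21 days is given both as the length of dosing and as the time of collection. Whether 1 rat gave all 3 tissues is not stated, and the p-values rest on variation from pool to pool.

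Glycolysis splits glucose to pyruvate and gains ATP and NADH on the way, and lactate dehydrogenase turns pyruvate into lactate while returning NADH to NAD+. Several steps have isozymes of separate genes: in brain, aldolase C is known as the astrocyte form, with patches of Purkinje cells also positive, enolase 2 as the neuronal form, and the H subunit of lactate dehydrogenase (Ldhb) as the partner of the M subunit (Ldha). Peripheral nerve is made of axons, whose cell bodies lie elsewhere, with Schwann cells, fibroblasts and fat around them, so transcripts of neuronal cell bodies are few there.

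The stretch upstream of the start site is shown for the pair of lactate dehydrogenase genes, of which Ldha was higher and Ldhb lower in nerve than in cord, and for Aldoc and Pfkp, whose tissue differences were the widest of the 9 genes. The sequences are the 250 bases before the RefSeq start site in build GRCr8, printed 5′ to 3′ on the gene's strand, and capitals mark ACGTG or GCGTG on either strand, the core letters bound by hypoxia-inducible factors. Ldha lies at chr1:106507842-106508091 on the plus strand, Ldhb at chr4:177177409-177177658 on the minus strand, Aldoc at chr10:63715294-63715543 on the plus strand and Pfkp at chr17:68639563-68639812 on the plus strand.
Ldha: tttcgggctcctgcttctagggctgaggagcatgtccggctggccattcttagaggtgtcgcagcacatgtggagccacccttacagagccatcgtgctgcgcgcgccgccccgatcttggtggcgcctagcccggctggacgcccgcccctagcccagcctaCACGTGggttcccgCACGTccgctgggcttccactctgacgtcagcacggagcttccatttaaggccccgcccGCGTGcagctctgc
Ldhb: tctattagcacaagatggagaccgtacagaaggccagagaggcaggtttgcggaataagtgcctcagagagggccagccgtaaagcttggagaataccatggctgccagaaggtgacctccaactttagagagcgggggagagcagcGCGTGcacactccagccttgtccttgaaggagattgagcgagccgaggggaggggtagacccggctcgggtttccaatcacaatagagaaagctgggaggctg
Aldoc: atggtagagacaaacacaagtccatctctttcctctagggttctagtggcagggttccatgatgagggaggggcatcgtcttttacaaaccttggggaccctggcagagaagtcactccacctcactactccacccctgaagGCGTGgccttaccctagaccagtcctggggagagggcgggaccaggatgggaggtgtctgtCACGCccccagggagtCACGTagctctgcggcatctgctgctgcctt
Pfkp: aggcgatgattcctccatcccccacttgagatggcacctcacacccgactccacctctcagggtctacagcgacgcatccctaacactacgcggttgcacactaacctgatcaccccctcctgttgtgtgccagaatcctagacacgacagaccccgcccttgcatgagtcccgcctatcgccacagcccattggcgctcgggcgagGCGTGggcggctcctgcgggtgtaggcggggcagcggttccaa
The Ldha stretch held 4 matches, at 87, 86, 73 and 14 bases before the start, of which the first and second overlap on opposite strands as the palindrome CACGTG, an E-box. Aldoc held 3 matches, and Ldhb and Pfkp 1 each. RefSeq start sites were found for 9 of the 10 genes, with 13 entries because Hk1 and Eno1 have 2 and Aldoa has 3, and none was matched for Pgk1. At least 1 match stood in 10 of the 13 entries, against 36.7% of 33469 promoters of the same length. The G and C content of the 13 entries ran from 48.8% to 70% and the median over all promoters was 51.2%. These letters are matches only, and the arrays carry no measure of binding.

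Each signal is a linear intensity in arbitrary units, and signals of different probe sets are not set against each other. Marker genes were highest in the tissues they name. The summed signal of 7 cerebellar neuron markers was 68967 to 74953 in cerebellum and 1340 to 1996 in cord, that of 4 motor neuron markers was 4794 to 5101 in cord and at most 532 elsewhere, and that of 4 peripheral myelin markers was 73672 to 96325 in nerve, 34536 to 43877 in cord and at most 2894 in cerebellum. Arrays that stood apart were found by the same lists, and no marker of those lists was at 0. The nerve arrays numbered 1 carried cerebellar neuron markers at 12.8% (saline) and 16.9% (acrylamide) of the cerebellar mean, where the arrays numbered 2 had 1.13% and less. The summed signal of 9 skeletal muscle markers was 42940 on cord saline array 1, against at most 1429 on the other 3 cord arrays. Nerve saline array 1 also had the highest sums in nerve for 7 fat cell markers (38852, against 9409 to 15500 on the other 3 arrays) and for 7 macrophage markers (6492, against 1868 to 3736). In nerve, the muscle sum was 5908 and 737 with saline and 1918 and 22620 with acrylamide. The main results that moved without these arrays are given both ways.

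**Figure D1:**
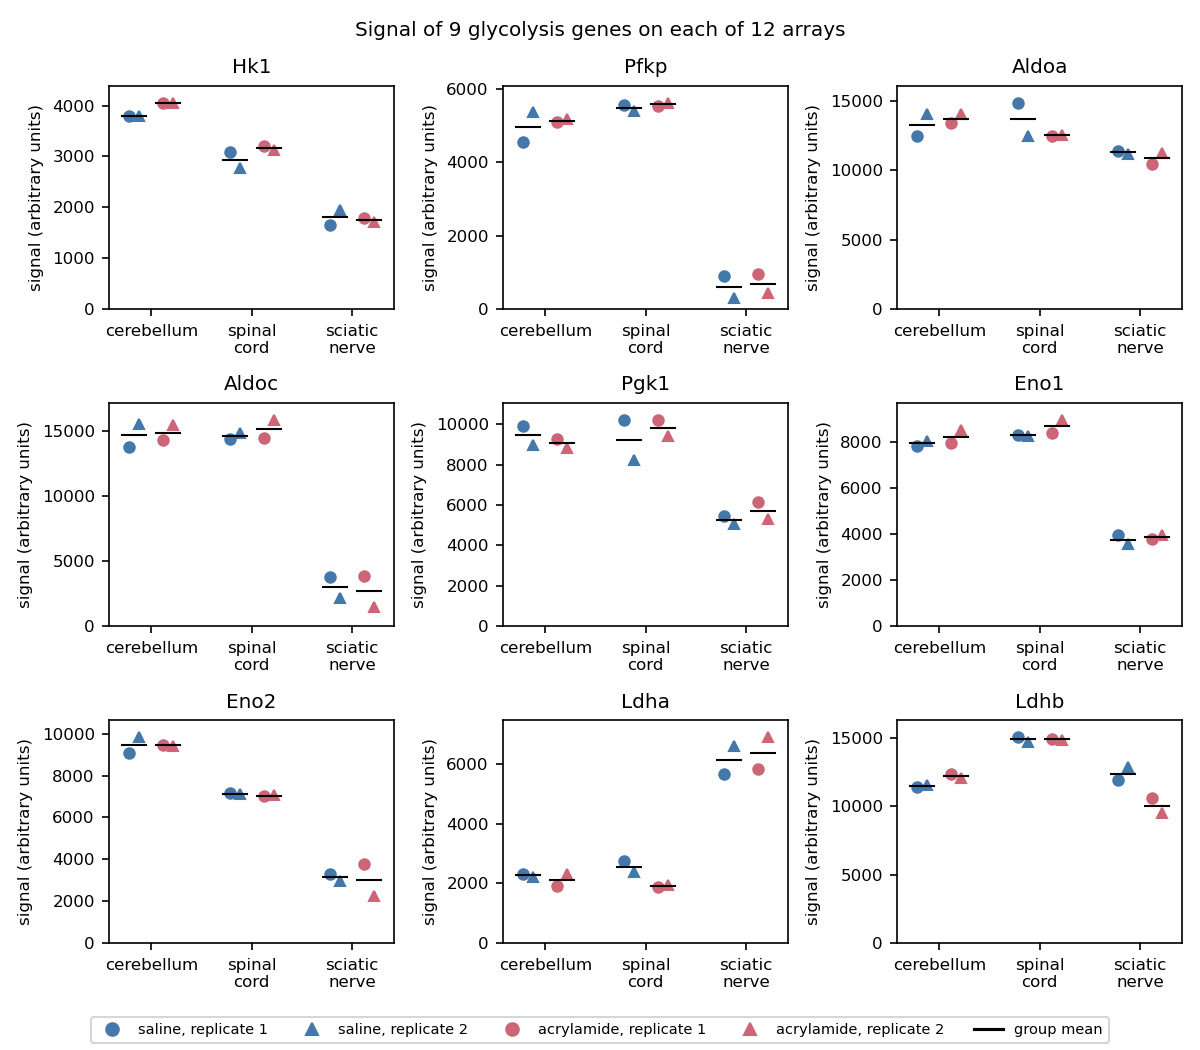
Signal of the 9 glycolysis genes (y axis, arbitrary units, linear from 0) in the 3 tissues (x axis). Each point is 1 array of 2 pooled rats, blue for saline and red for acrylamide, circles for arrays numbered 1 and triangles for arrays numbered 2, and bars are means of 2 arrays. Ldha is the panel where nerve is highest, and Pfkp, Aldoc and Eno2 are far lower in nerve. There their triangles, and those of Pgk1 (1388318_at), lie below the circles.

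Between the tissues of saline rats, sciatic nerve had lower signals than spinal cord for Pfkp, Aldoc and both enolases and a higher signal for the M subunit of lactate dehydrogenase. At an adjusted p under 0.05 with at least a 2-fold difference (limma, Benjamini-Hochberg over all probe sets tested), 4 of the 9 genes were lower in nerve than in cord (Pfkp, Aldoc, Eno1 and Eno2) and 1 was higher (Ldha). Of all 20238 probe sets tested there, 26.1% were called, 15.5% lower and 10.6% higher. Against cerebellum, 5 of the 9 were lower in nerve (the same 4 and Hk1) and Ldha was higher, where 38.4% of all probe sets were called, 20.6% lower and 17.7% higher. Between cord and cerebellum none of the 9 was called by limma, where 21.6% of all probe sets were. That comparison had 2 of the 9 genes past the adjusted p alone (53.1% of all probe sets), both by less than 2-fold, and the same count of 2 had an unadjusted p under 0.05 (59.2%). The 3 comparisons share arrays, so their values are given side by side for each gene and are not independent. The median log2 difference over the 9 genes was -0.80 for nerve minus cord, -1.07 for nerve minus cerebellum and 0.041 for cord minus cerebellum, beside 0.037, -0.14 and -0.056 over all probe sets tested. These are whole tissues, in which fewer cells of a type and less RNA per cell cannot be told apart.

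Hexokinase 1, which traps glucose as glucose 6-phosphate, followed the order cerebellum, cord, nerve. Hk1 (1386929_at) read 3789 and 3795 in saline cerebellum, 3092 and 2775 in saline cord and 1648 and 1953 in saline nerve. No array of one tissue reached the range of another, with acrylamide arrays at 4057 and 4061, 3198 and 3123, and 1783 and 1721. The fall from cerebellum to cord was -0.37 ± 0.090 (log2 difference ± SE, limma adjusted p = 0.00726) and that from cord to nerve -0.70 ± 0.090 (adjusted p = 0.000174), both under 2-fold, and the first was -0.29 without cord saline array 2 (adjusted p = 0.0621). Nerve minus cerebellum was -1.07 ± 0.090 (adjusted p = 7.84e-06). Without nerve saline array 1 this last value was -0.95, under 2-fold. The array maker's 3 hexokinase controls were in the same order of tissues: the 3' control averaged 1111 ± 49.1 in cerebellum, 814 ± 56.4 in cord and 497 ± 70.3 in nerve (SD, n = 4).

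Platelet-type phosphofructokinase, an isoform of the enzyme that commits sugar phosphate to glycolysis, had the widest tissue difference of the 9. Pfkp (1372182_at) read 4541 and 5371 in saline cerebellum, 5565 and 5402 in saline cord, and 888 and 304 in saline nerve. The acrylamide arrays read 5108 and 5167 in cerebellum, 5530.3 and 5629.7 in cord, and 962 and 425 in nerve, so that all 4 nerve arrays lay far below the 8 others and both nerve arrays numbered 1 lay above both numbered 2. The nerve level was 10.2-fold below cord (log2 difference -3.35 ± 0.45, limma adjusted p = 0.00023) and 9.21-fold below cerebellum (-3.20 ± 0.45, adjusted p = 0.000182). Nerve minus cord was -4.10 without nerve saline array 1 and -2.60 without nerve saline array 2, both past the threshold. Cord and cerebellum did not differ beyond their spread (0.15 ± 0.45, adjusted p = 0.795).

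The aldolases, which cleave fructose 1,6-bisphosphate, went apart in nerve. Aldoc (1386998_at) read 13820.1 and 15578 in saline cerebellum, 14425 and 14885 in saline cord, and 3775 and 2168 in saline nerve. Its acrylamide arrays read 14297 and 15509, 14459 and 15904, and 3870.4 and 1472 in the same order of tissues. Nerve was lower on every array, and cerebellum and cord overlapped. The nerve level was 5.10-fold below both cord (-2.35 ± 0.38, limma adjusted p = 0.000705) and cerebellum (-2.35 ± 0.38, adjusted p = 0.000456), and nerve minus cord was -2.75 without nerve saline array 1. Aldoa (1367617_at) differed by less between the tissues, at 12469 and 14026 in saline cerebellum, 14882 and 12448 in saline cord and 11374 and 11207 in saline nerve. Its highest cord value was on the array with muscle transcripts, a tissue rich in aldolase A. Nerve was lower than cord by less than 2-fold (-0.27 ± 0.091, adjusted p = 0.0291), and without that cord array by -0.14 (adjusted p = 0.228). Nerve minus cerebellum was -0.23 ± 0.091 (adjusted p = 0.0471) and -0.14 without cerebellum saline array 2 (adjusted p = 0.265). Median centring of the arrays brought these to -0.089 and -0.030, neither past the threshold, and quantile normalization to -0.51 and -0.56. The adjusted p also rose above 0.05 without the brightness filter (0.0511 against cord, 0.0763 against cerebellum) and without the variance trend (0.0734 and 0.105). Without nerve saline array 1 it was 0.065 and 0.0935, and without nerve saline array 2 it was 0.0911 and 0.127. Cord and cerebellum did not differ beyond their spread (adjusted p = 0.721). The log2 ratio of Aldoc to Aldoa, set to 0 at the saline cerebellar mean, was -1.74 and -2.51 on the saline nerve arrays and -1.58 and -3.07 on the acrylamide nerve arrays.

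Phosphoglycerate kinase 1 makes the first ATP that glycolysis yields, and 2 of its probe sets were tested. The brighter, 1388318_at, read 9933 and 8999.6 in saline cerebellum, 10239.6 and 8239 in saline cord, and 5465 and 5081 in saline nerve. Pgk1 was lower in nerve than in cord by 1.74-fold with this probe set (-0.80 ± 0.11, limma adjusted p = 0.000322), under the 2-fold limit. The other, 1387361_s_at, read 5625 and 5131 in saline cord and 2620.4 and 2353 in saline nerve, 2.16-fold lower (-1.11 ± 0.079, adjusted p = 7.8e-06). The probe sets thus gave the same direction and fell on opposite sides of the fold limit, and neither separated cord from cerebellum (adjusted p = 0.776 and 0.758).

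Enolases make phosphoenolpyruvate, Eno1 in most cells and Eno2 chiefly in neurons. Eno1 (1367575_at) read 7835 and 8037 in saline cerebellum, 8314 and 8264 in saline cord, and 3967 and 3549 in saline nerve. Eno2 (1370341_at) read 9102 and 9870.3 in saline cerebellum, 7147 and 7145 in saline cord, and 3312 and 2963 in saline nerve. Both were about as far down from cord to nerve, Eno1 by 2.20-fold (-1.14 ± 0.073, limma adjusted p = 5.04e-06) and Eno2 by 2.27-fold (-1.19 ± 0.19, adjusted p = 0.000653). Against cerebellum, nerve was lower by 2.11-fold for Eno1 (-1.08 ± 0.073, adjusted p = 2.24e-06) and by 3.02-fold for Eno2 (-1.59 ± 0.19, adjusted p = 6.66e-05), and Eno1 fell just under 2-fold without nerve saline array 2. Eno2 lay below cerebellum on all 4 cord arrays, yet the difference missed the threshold (-0.41 ± 0.19, adjusted p = 0.0991). Its adjusted p was 0.000207 without the nerve arrays numbered 1, which share the model's spread, 0.0213 with both treatments averaged, and 0.286 without cerebellum saline array 2. Eno1 did not differ between them beyond its spread (adjusted p = 0.492). The log2 ratio of Eno2 to Eno1, again set to 0 at the saline cerebellar mean, was -0.47 on each saline cord array and -0.51 and -0.52 on the saline nerve arrays, so by this measure cord and nerve were alike in saline rats. The acrylamide nerve arrays were at -0.25 and -1.09.

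Lactate dehydrogenase subunits were the pair in which nerve stood out upward. Ldha (1367586_at) read 2331 and 2216 in saline cerebellum, 2751 and 2374 in saline cord, and 5663 and 6618 in saline nerve. All 4 nerve arrays, at 5663 to 6938, lay above all 8 others. The nerve level was 2.39-fold above cord (1.26 ± 0.13, limma adjusted p = 4.96e-05) and 2.68-fold above cerebellum (1.42 ± 0.13, adjusted p = 1.25e-05), and cord and cerebellum did not differ beyond their spread (adjusted p = 0.296). Ldhb (1370218_at) read 11404 and 11549 in saline cerebellum, 15100.2 and 14666 in saline cord, and 11885 and 12848 in saline nerve. Cord was highest, above cerebellum by 1.30-fold (0.37 ± 0.067, adjusted p = 0.00146) and above nerve by 1.20-fold (nerve minus cord -0.27 ± 0.067, adjusted p = 0.00721), and nerve and cerebellum did not differ beyond their spread (0.11 ± 0.067, adjusted p = 0.179). That last value depended on the scaling and the arrays: it was -0.22 under quantile normalization (adjusted p = 0.0205), 0.30 after median centring (adjusted p = 0.0104) and 0.16 without the nerve arrays numbered 1 (adjusted p = 0.0381). Nerve minus cord was -0.53 under quantile normalization and -0.087 after median centring (adjusted p = 0.401). The log2 ratio of Ldhb to Ldha, relative to saline cerebellum, was 0.12 and 0.29 on saline cord arrays and -1.26 and -1.37 on saline nerve arrays, a shift toward the M subunit in nerve on both arrays.

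**Figure D2:**
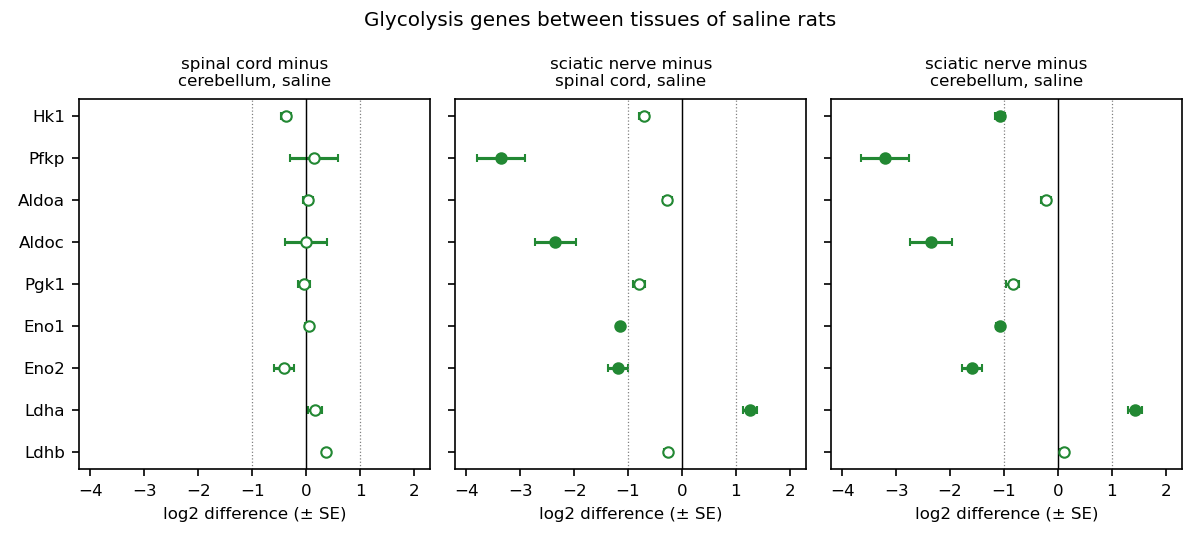
Log2 differences between tissues of saline rats for the 9 glycolysis genes (x axis, points with limma standard errors), 1 panel for each comparison. Filled points passed an adjusted p of 0.05 with at least a 2-fold difference, whose limits are dotted. In both nerve panels Ldha lies to the right and Pfkp and Aldoc lie farthest left, while the cord minus cerebellum panel has no filled point.

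**Figure D3:**
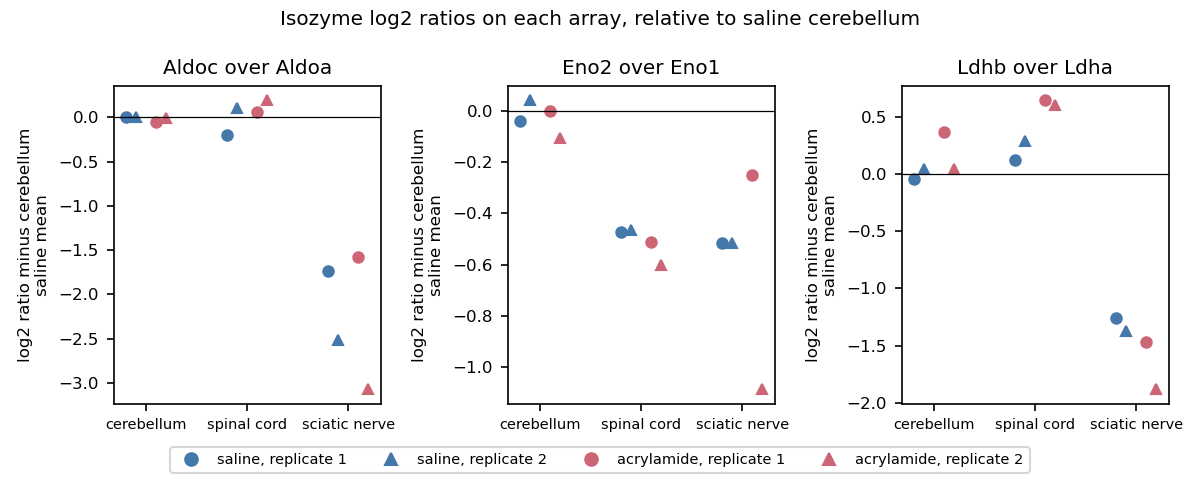
Log2 ratio of isozyme signals on each array (y axis), with the saline cerebellar mean set to 0, for aldolases, enolases and lactate dehydrogenase subunits in the 3 tissues (x axis). Blue is saline, red acrylamide, circles arrays numbered 1 and triangles arrays numbered 2. Nerve is below the other tissues for Aldoc over Aldoa and for Ldhb over Ldha, and the acrylamide nerve points are -1.58 and -3.07 for the first of these.

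On the nerve arrays, 4 of the genes, Pfkp, Aldoc, Pgk1 (1388318_at) and Eno2, were lower on both arrays numbered 2 than on both numbered 1, as the neuronal markers were. The other tested Pgk1 probe set, 1387361_s_at, overlapped, at 2620.4 and 2751 on the arrays numbered 1 and 2353 and 2673 on those numbered 2. The share of all probe sets split by array number was not counted, so the 4 cannot be read as more than the arrays give at large. Same-numbered nerve arrays deviated together over the probe sets of the model (correlation 0.42), a value that does not give that share. As a percent of the mean of the 4 cerebellar arrays, Pfkp was 17.6% and 6.03% on saline nerve arrays 1 and 2 and 19.1% and 8.42% on the acrylamide arrays, and Aldoc was 25.5% and 14.6%, then 26.1% and 9.94%. Eno2 was 35.0% and 31.3%, then 39.9% and 23.5%, and Pgk1 was 59.0% and 54.8%, then 66.1% and 57.1%. The summed signal of 7 neuron markers was 21.7% and 4.62%, then 25.9% and 4.10%, and its part in these values was not tested. On the arrays numbered 2, where cerebellar neuron markers were at 1.13% or less, Pfkp and Aldoc were lower than on the arrays numbered 1. Ldha went the other way, at 258% and 302% with saline and 266% and 316% with acrylamide. Eno1 showed no such order, at 49.1% and 43.9% with saline and 46.6% and 49.1% with acrylamide. The relative spread over the 4 arrays of a tissue (SD over mean) was 51.0% in nerve, 7.05% in cerebellum and 1.73% in cord for Pfkp. For Aldoc it was 42.2%, 5.94% and 4.62%.

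**Figure D4:**
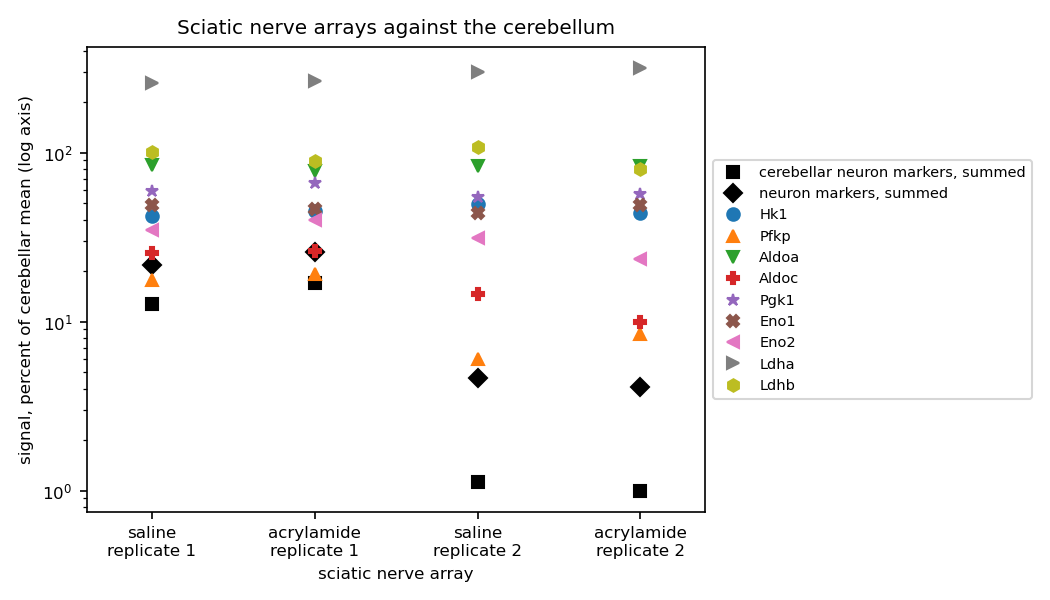
Signal on the 4 sciatic nerve arrays as a percent of the mean cerebellar signal (y axis, log scale) for each glycolysis gene (coloured) and for the summed neuron and cerebellar neuron markers (black). The markers, Pfkp, Aldoc, Pgk1 (1388318_at) and Eno2 are lower on both arrays numbered 2, and Ldha is at 258% or more on all 4.

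By the rule of highest Pearson correlation of log2 signals over the 12 arrays, among 12188 probe sets of 1 symbol, the patterns most like that of Aldoc were those of Cend1 (r = 0.998), Stmn3 (0.997), Magee1 (0.996) and Vsnl1 (0.996). The 12 arrays share their tissues, so these values describe mainly the low signal in nerve. Stmn3, for example, lay between 7559 and 8299 in cerebellum and cord and between 465 and 1654 in nerve.

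The Gapdh transcript was nearly level across tissues and treatments on the shared probe set and the 3' control, while the 5' and middle controls were lower in nerve on average. The shared probe set 1367557_s_at read 16451 and 17822 in saline cerebellum, 18158 and 16179 in saline cord and 15633 and 17914 in saline nerve. With acrylamide it read 16267 and 17794, 17919.9 and 17308, and 15308 and 16771. All 3 tissues and both treatments overlapped, and none of its tissue or treatment differences passed the threshold (nerve minus cord -0.034 ± 0.091, limma adjusted p = 0.763; acrylamide in nerve -0.063 ± 0.091, adjusted p = 0.999). The 3' Gapdh control averaged 16689 ± 774 in cerebellum, 16677 ± 841 in cord and 16235 ± 1344 in nerve (SD, n = 4). In the same order, the 5' control averaged 15531 ± 1113, 14136 ± 1016 and 13415 ± 1585, and the middle control 13363 ± 740, 12571 ± 712 and 11725 ± 1180. The ratio of 3' to 5' signal, a measure of RNA and cDNA integrity, was 1.04 to 1.11 in cerebellum, 1.13 to 1.21 in cord and 1.14 to 1.28 in nerve. For the hexokinase control the same ratio was 2.26 to 3.01, 2.82 to 4.55 and 3.81 to 5.33, highest where Hk1 was lowest, and for beta-actin it ran from 2.12 to 3.32 over all arrays. Their part in the tissue differences above was not tested.

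With acrylamide, no glycolysis gene changed in any tissue by the test. None of the 9 passed an adjusted p of 0.05 in cerebellum, cord or nerve, where 0%, 0% and 0.00551% of all probe sets did, nor on average over the 3 tissues (0.00938%), nor in the test of whether the effect differed between tissues (0%). At an unadjusted p under 0.05 the counts were 0, 1 and 1 of 9 in cerebellum, cord and nerve, where 2.75%, 2.88% and 5.10% of all probe sets were that low, and 0 of 9 for the average, where 5.56% were. The median log2 difference over the 9 genes was 0.049 in cerebellum, 0.025 in cord and -0.034 in nerve, and over all probe sets it was within 0.0040 of 0 in each.

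Ldha in spinal cord was one of the pair of genes with a low unadjusted p. It read 2751 and 2374 with saline and 1894 and 1934 with acrylamide, so both treated arrays lay below both controls. The difference was -0.41 ± 0.13, a level 1.33-fold lower (limma adjusted p = 1), with a 95% interval from -0.70 to -0.12. The saline array with the higher Ldha is the one that carried muscle transcripts, and without it the difference was -0.31 (adjusted p = 1). Markers of peripheral tissue were lower on the treated cord arrays too: the peripheral myelin sum was 41649 and 43877 with saline and 36128 and 34536 with acrylamide, and that of 5 fibroblast markers was 23585 and 21530 against 18108 and 14959. Their part in the Ldha values was not tested. In cerebellum Ldha read 2331 and 2216 with saline and 1905 and 2325 with acrylamide (-0.11 ± 0.13), and in nerve 5663 and 6618 against 5834 and 6938 (0.055 ± 0.13). These overlapped, and the average over tissues was -0.16 ± 0.074 (adjusted p = 0.927).

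Ldhb in sciatic nerve was the other. Its signal was 11885 and 12848 with saline and 10626 and 9473 with acrylamide, again without overlap. The difference was -0.30 ± 0.067, a level 1.23-fold lower (limma adjusted p = 0.7), with a 95% interval from -0.45 to -0.15. The lower treated array is the one with muscle markers at 22620, and without it the difference was -0.22 (adjusted p = 0.696). In cerebellum Ldhb lay the other way, at 11404 and 11549 with saline and 12378 and 12073 with acrylamide (0.091 ± 0.067, adjusted p = 1), and in cord it was level (0.0021 ± 0.067). The difference between tissues had an adjusted p of 1 (limma F test).

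Arrays of the 2 treatments did not overlap for 2 of the 9 genes in cerebellum (33.7% of all probe sets), 4 in cord (33.6%) and 1 in nerve (26.2%). Hk1 was among them in cerebellum, at 3789 and 3795 with saline and 4057 and 4061 with acrylamide (0.098 ± 0.090, limma adjusted p = 1), and in cord, at 3092 and 2775 against 3198 and 3123 (0.11 ± 0.090, adjusted p = 1). In nerve it overlapped (-0.034 ± 0.090). Eno1 was higher and Eno2 lower on both treated cord arrays, with group differences of 1.05-fold and 1.01-fold and an adjusted p of 1 for each. On tested probe sets the other genes overlapped in every tissue, apart from the second Pgk1 probe set in nerve (2620.4 and 2353 with saline, 2751 and 2673 with acrylamide, 0.13 ± 0.079, adjusted p = 0.999). The probe sets too dim to be tested did not overlap in cerebellum or nerve. There 1398725_at of Hk1 was lower with acrylamide, in cerebellum against the direction of the tested Hk1 probe set, and 1368906_at of Pgk1 was higher.

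For Pfkp, Aldoc and Eno2 the test could not have shown small effects. Their 95% intervals for acrylamide in nerve ran from -0.73 to 1.30, from -1.12 to 0.60 and from -0.54 to 0.32. The model holds 1 spread per probe set for all tissues, so the nerve spread also widens the intervals in cerebellum and cord, for Pfkp from -0.96 to 1.07 and from -0.99 to 1.04. The bounds for Hk1, Aldoa, Eno1 and Ldhb lay between -0.45 and 0.31 in all 3 tissues. These intervals are not adjusted over all probe sets, so a gene whose interval leaves out 0 can still miss the threshold, as Ldhb did in nerve.

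Leaving out both nerve arrays numbered 1, which carried cerebellar transcripts, changed the count in nerve from 0 to 3 probe sets. Nerve then holds 1 array of each treatment, with a spread taken from cerebellum and cord, so that the lone arrays are assumed to vary as those do. Aldoc was lower with acrylamide (2168 with saline, 1472 with acrylamide, -0.55 ± 0.11, limma adjusted p = 0.0341). Eno2 was lower as well (2963 and 2227, -0.41 ± 0.082, adjusted p = 0.0376), and so was Ldhb (12848 and 9473, -0.44 ± 0.071, adjusted p = 0.0169). Of all 17906 probe sets tested that way 2.17% were called, and 0.743% as lower. Pfkp lay at 304 and 425 (0.46 ± 0.11, adjusted p = 0.0763). The acrylamide array in this pair is the one with muscle markers at 22620, against 737 on its saline partner, and the part of muscle RNA was not tested. Without that array and cord saline array 1, Aldoc and Eno2 had the opposite sign in nerve (0.43 and 0.27). The lone treated nerve array of that fit carried cerebellar neuron markers at 16.9% of the cerebellar mean, against 12.8% and 1.13% on the saline nerve arrays. The part of cerebellar RNA in that sign was not tested.

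**Figure D5:**
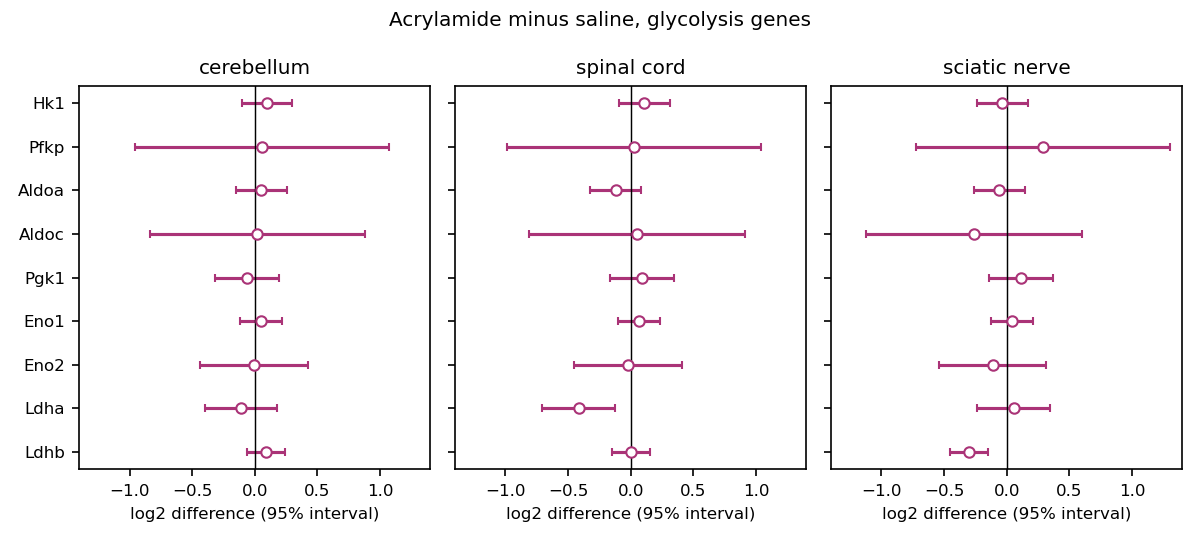
Acrylamide minus saline for the 9 glycolysis genes in each tissue (x axis, log2 difference with its 95% limma interval from 2 arrays per group). The intervals of Ldha in spinal cord and of Ldhb in sciatic nerve lie below 0 and did not pass adjustment over all probe sets, and Pfkp and Aldoc have the widest intervals.

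Around these enzymes, 8 lists held 102 genes of transport, branches and control, 90 of them on the arrays. Between nerve and cord of saline rats, all 11 other glycolytic enzymes tested had a lower mean in nerve, 1 of them called, with a median log2 difference of -0.76 (0.037 over all probe sets, of which 51.9% were higher in nerve). Of these, 8 were bright enough in nerve to be tested there, and the others passed only in cord, which favours a lower mean in nerve. Pgam2 read 623 and 5.02 on the saline cord arrays, the first being the array with muscle markers, and 92.6 and 24.1 in saline nerve. Pgam1, the mutase that precedes enolase, went from 10689.8 ± 515 in cord to 5951 ± 314 in nerve (SD, n = 2, -0.84 ± 0.078, limma adjusted p = 2.86e-05), under 2-fold, and Adpgk, an ADP-dependent glucokinase, was the one called (-1.15 ± 0.16). The enzymes of the pentose phosphate pathway, which makes NADPH from glucose 6-phosphate, lay the other way: all 7 had a higher mean in nerve, 1 of them called (median 0.49, 10.6% of all probe sets called higher), and against cerebellum 3 of 7 were called higher (17.7% of all), Taldo1 (1.91 ± 0.12, adjusted p = 1.19e-06), Pgd (1.25 ± 0.099) and Tkt (1.34 ± 0.13). Of the NADH shuttles and creatine kinases, all 10 had a lower mean in nerve than in cord and 7 were called (15.5% of all probe sets), among them Got1 (-2.63 ± 0.25) and Got2 (-1.07 ± 0.083), the aspartate aminotransferases of the malate-aspartate shuttle. Of the 10, 9 were bright enough in nerve to be tested there, and the other passed only in cord. Ckm, the muscle creatine kinase, was not called, at 3492 ± 4786 in cord (SD, n = 2), where 1 of the arrays carried muscle markers. Its lower mean in nerve rests on that array, with 6876 and 108 in saline cord and 971 and 103 in saline nerve. Of 9 glucose and lactate transporter genes tested against cerebellum, 4 had a higher and 5 a lower mean in nerve, with a median of -0.28 (-0.14 over all probe sets). By the threshold, 2 were called higher and 2 lower (17.7% and 20.6% of all probe sets). Those called higher were the glucose transporter gene Slc2a1 and the lactate carrier gene Slc16a1 (1.33 ± 0.086, adjusted p = 1.77e-06, and 1.78 ± 0.070, adjusted p = 1.26e-07).

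None of the listed genes passed the limma threshold with acrylamide in any tissue, and an unadjusted p under 0.05 was found for 1 of 77 tested in cerebellum, 2 of 79 in cord and 7 of 77 in nerve, where 2.75%, 2.88% and 5.10% of all probe sets were that low. Among transporters, Slc2a1 was higher on both treated nerve arrays, 4141 ± 361 against 3144 ± 113 (SD, n = 2, 0.39 ± 0.086, limma adjusted p = 0.7), and Slc16a1 was higher on both treated arrays in nerve (0.23 ± 0.070, adjusted p = 0.907) and in cerebellum (0.19 ± 0.070, adjusted p = 1). Gys1, the glycogen synthase gene, was 161 ± 0.726 against 255 ± 34.7 in nerve (-0.61 ± 0.15, adjusted p = 0.787).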

How the data were processed

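Signals were deposited as 1 linear intensity per probe set, and the submitters' processing notes name GCOS 1.1. Which algorithm and which scaling target were used is not given in the sources used here. Each array's mean after trimming 2% at each end was near 500.1, so the arrays had been scaled as a whole. Arrays were grouped by tissue and treatment from their labels.

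Signals were analysed as log2(signal + 16) without further scaling, which understates differences of dim genes. Probe sets were tested where a mean over the 4 arrays of a tissue compared passed the 40th percentile (a signal of 112), which left 21332 in 1 limma 3.58.1 model of 6 groups under R 4.3.3 (eBayes with trend, 6 residual and 3.13 prior degrees of freedom). The model was also run on simulated data with noise drawn separately for each array. Those data lacked the shared deviations of the nerve arrays, so that run cannot tell how the model deals with them. Two-sided p-values were adjusted by Benjamini-Hochberg over all probe sets of a comparison, with a threshold of 0.05. Precision is limited by the 2 arrays of each group. The brightest probe set stood for its gene, and up to 4 genes of a pathway list were named by the smallest p.

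Genes were named from the platform annotation (20826 probe sets with 1 symbol, 436 with several, 9780 with none), and 57 control probe sets were not tested. Members and lists were chosen with earlier results of these data known. Same-numbered arrays deviated together in nerve (correlation 0.42) and hardly in cerebellum (0.061) or cord (-0.064), so the numbers were not taken to pair samples. Alternatives covered scaling, pseudocount, filter, variance model, blocks, single-tissue fits and left-out arrays (28 in all, statmod 1.5.0 for the random block).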

Additional observations from a re-analysis of the deposited data

Results flagged for a closer look

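Of 21 probe sets examined (the members and the listed genes with an unadjusted p under 0.05 for acrylamide), 3 had both treated arrays above both saline arrays in one tissue and below them in another. Ldhb was higher in cerebellum (0.091) and lower in nerve (-0.30), a gap of 0.39 on the log2 scale (limma F test of the tissue difference, adjusted p = 1). Slc2a13, a proton and inositol carrier gene of the glucose transporter family, was higher in cord (0.17) and lower in nerve (-0.36), a gap of 0.54 (adjusted p = 1). Gpd1, which makes glycerol 3-phosphate, was higher in cerebellum (0.085) and lower in nerve (-0.44) and cord (-0.13), with a widest gap of 0.53 (adjusted p = 1). None of the 3 passed the test of the difference, and the causes were not tested. With 2 arrays per group, groups that do not overlap are frequent, at 26.2% to 33.7% of all probe sets in a tissue. The share of all probe sets with opposite sides in 2 tissues was not counted, so the 3 cannot be read as more than the arrays give at large.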

How the results depend on the processing

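With 2 pools per group and 1 shared spread, small changes could not be seen. The quoted intervals are for single genes, without adjustment over all probe sets, and are not the limit of what could be called. Ldhb in nerve and Ldha in cord had intervals below 0 and did not pass. Over 750 values for 30 tissue results, none of the 13 called results changed direction, while 8 values fell under the threshold and 1 passed it. Over 990 values for 40 acrylamide results, 3 passed, all in nerve without the arrays numbered 1. Median centring moved the median of all probe sets by 0.18 (nerve minus cord) and 0.20 (nerve minus cerebellum) and quantile normalization the latter by 0.10. The cause of the changes below was not tested.

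Calls among the 10 member probe sets were 3 rather than 0 for acrylamide in nerve without the nerve arrays numbered 1, and, after median centring, 4 rather than 6 for nerve minus cord and 4 rather than 7 for nerve minus cerebellum (8 under quantile normalization). The replicate number as a block within tissues left the member counts at 0, 6 and 7 for the comparisons of tissues, and 0 for acrylamide, with 6 rather than 2 of all probe sets called on average, and a random block (correlation 0.125) gave 2. The fixed replicate block put Eno2 cord minus cerebellum past the adjusted p (0.0291), a difference under 2-fold. Median centring put nerve minus cord at -0.96 (Eno1) and -0.93 (Pgk1, 1387361_s_at) and nerve minus cerebellum at -0.87 (Hk1), -0.94 (Pgk1, 1387361_s_at) and -0.88 (Eno1), all under 2-fold. Quantile normalization put Pgk1 (1388318_at) at -1.03 against cerebellum.

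Directions of results that had not passed a threshold changed as follows (log2). Median centring: Eno2 in cerebellum 0.0017 and in cord 0.00080, Pgk1 (1387361_s_at) in cord 0.0027, Eno1 in nerve -0.010, Aldoc cord minus cerebellum 0.016. Quantile normalization: Ldhb in cord -0.0074, Aldoa cord minus cerebellum -0.051, Ldhb nerve minus cerebellum -0.22. Without the arrays of high muscle signal: Aldoa in cord 0.0090, Pgk1 (1387361_s_at) in cord 0.047, Aldoc, Eno2 and Ldha in nerve 0.43, 0.27 and -0.069, Aldoc and Eno2 on average 0.16 and 0.081, Aldoa and Aldoc cord minus cerebellum -0.087 and 0.021. Without the nerve arrays numbered 1, Aldoa in nerve was 0.0063. With both treatments averaged: Aldoa, Aldoc and Pgk1 (1388318_at) cord minus cerebellum -0.045, 0.012 and 0.035, Ldhb nerve minus cerebellum -0.089.

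Leaving out 1 array at a time changed the sign of the following results, none of which had passed a threshold. For acrylamide in cerebellum the ranges were -0.064 to 0.18 (Pfkp), -0.032 to 0.14 (Aldoa), -0.065 to 0.11 (Aldoc), -0.13 to 0.010 (Pgk1 (1388318_at)), -0.064 to 0.053 (Eno2) and -0.25 to 0.033 (Ldha). In cord they were -0.25 to 0.009 (Aldoa), -0.019 to 0.12 (Aldoc), -0.064 to 0.25 (Pgk1 (1388318_at)), -0.085 to 0.047 (Pgk1 (1387361_s_at)) and -0.019 to 0.023 (Ldhb). In nerve they were -0.16 to 0.087 (Hk1), -0.46 to 1.04 (Pfkp), -0.95 to 0.43 (Aldoc), -0.037 to 0.12 (Eno1), -0.49 to 0.27 (Eno2) and -0.069 to 0.18 (Ldha). For the average they were -0.13 to 0.37 (Pfkp), -0.085 to 0.0012 (Aldoa), -0.29 to 0.17 (Aldoc), -0.0045 to 0.10 (Pgk1 (1388318_at)), -0.0058 to 0.046 (Pgk1 (1387361_s_at)) and -0.17 to 0.080 (Eno2). For cord minus cerebellum they were -0.087 to 0.17 (Aldoa), -0.088 to 0.084 (Aldoc), -0.20 to 0.11 (Pgk1 (1388318_at)) and -0.10 to 0.035 (Pgk1 (1387361_s_at)).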

Other observations

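Targets of hypoxia-inducible factors outside glycolysis and the enzymes that feed pyruvate to mitochondria were also read across tissues of saline rats. Ndrg1, a myelin-linked target, had signals of 1781 ± 105 in cerebellum, 10086 ± 811 in cord and 20652 ± 2579 in nerve (SD, n = 2). It was higher in nerve than in cord (1.03 ± 0.094) and than in cerebellum (3.52 ± 0.094, limma adjusted p = 2.18e-08). Egln3, a prolyl hydroxylase that marks these factors for decay, was higher in cord (692 ± 66.7) than in cerebellum (205 ± 4.34, adjusted p = 4.2e-05) and nerve (169 ± 36.3, adjusted p = 1.45e-05). Of the 12 such targets tested between nerve and cord, 2 were called higher and 2 lower (10.6% and 15.5% of all probe sets), with a median log2 difference of -0.031 beside 0.037 over all probe sets. Among 13 genes of pyruvate dehydrogenase and pyruvate carriers, 1 was called lower in nerve than in cord (15.5% of all), Pdk2, a kinase that switches the enzyme off (-1.18 ± 0.14, adjusted p = 0.00011). Pdk4, another such kinase, was higher in nerve than in cerebellum (1.72 ± 0.17, adjusted p = 2.21e-05), and Pdk2 was lower there (-2.01 ± 0.14, adjusted p = 2.53e-06).

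Of the genes that store glucose as glycogen or release it, Pygb, the brain form of glycogen phosphorylase, was lower in nerve (1317 ± 246) than in cord (7265 ± 214, -2.46 ± 0.13, adjusted p = 2.79e-06), while Gyg1, the glycogen primer protein, was 742 in cerebellum, 2742 in cord and 1832 in nerve. In cord against cerebellum, 3 of 11 genes of this list were called (21.6% of all probe sets), with a median of 0.63 beside -0.056 over all probe sets.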
